A study of Mus musculus with 20 samples.

Results

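The nuclear genes of the mitochondrial respiratory chain were followed across 20 rat lungs. All animals belonged to the outbred Sprague Dawley stock. Members were the protein-coding nuclear genes whose symbol begins with Nduf, Sdh, Uqcr, Cox4, Cox5, Cox6, Cox7, Cox8 or Atp5 and whose FPKM (fragments per kilobase of transcript per M fragments, a level corrected for transcript length) reached 0.5 in at least 5 of the 20 libraries. The rule kept 95 of 105 rows with such a symbol, out of 23799 genes in the table and 15875 that passed the same filter on FPKM. Of the rows left out, 5 were not annotated as protein coding, among them both rows named Atp5mc1, and 5 were too low. No measured response entered the rule, but the members were chosen with earlier results of these data known.

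Lung tissue came from 4 groups of 5 rats, each library from its own animal: bleomycin males, sham males, bleomycin females and sham females. The treated rats carried an acute lung injury caused by bleomycin, a cytotoxic antibiotic known to injure the lung, and sham rats were the controls of the same sex. No genetic change is given for any group, the animals were matched on body weight, and dose, route, time after treatment and age are not given in the labels. Library totals ran from 68.6 to 87.5 M counts, and the members took 0.536% to 0.823% of them. The labelled tissue showed the lung's own transcripts, with a summed FPKM of 10598 or more over 7 lung genes, surfactant genes included, in every library. Other organs were marked by 4 chosen genes: Alb for liver, Acta1 for skeletal muscle, Adipoq for fat and Myl7 for atrial muscle. In 5 libraries (bleomycin males 2 and 5, sham males 3 and 5, and sham female 1) at least 1 of the 4 reached 50 FPKM. Sham male 3 passed it with Alb (52.3) and Acta1 (172.0), and bleomycin male 5 with Alb (97.0), Adipoq (75.0) and Myl7 (59.4). Another heart muscle gene, Actc1, ran from 15.6 to 136 FPKM over all libraries and also passed 50 in some libraries outside these 5.

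The respiratory chain sits in the inner mitochondrial membrane. Complex I takes electrons from NADH and complex II from succinate, both pass them through ubiquinone to complex III, cytochrome c carries them to complex IV, where oxygen is reduced, and complex V uses the resulting proton gradient to make ATP. Most subunits are encoded in the nucleus, a few in the mitochondrial genome, and the catalytic cores are joined by many small accessory subunits that stabilise the assembled enzymes. In the lung, alveolar type 2 cells, which make surfactant, are known for a high content of mitochondria.

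By role, the 95 members were 34 subunits of complex I (15 in the matrix arm that oxidises NADH and 19 in the membrane arm), 4 of complex II, 7 of complex III, 10 ubiquitous subunits of complex IV, 15 of complex V, 4 tissue-restricted isoforms of complex IV subunits, 10 assembly factors of complexes I and II, the supercomplex factor Cox7a2l, the ATP synthase inhibitor Atp5if1, and 9 rows that are named as pseudogenes or are second copies. The highest member was Atp5f1b, the catalytic beta subunit of ATP synthase, at 457 ± 102 FPKM in bleomycin males, 428 ± 18.5 in sham males, 439 ± 37.6 in bleomycin females and 415 ± 15.6 in sham females (SD, n = 5 each). Levels of the 3 members on the X chromosome, Ndufa1, Ndufb11 and Cox7b, did not pass the test between sham females and sham males.

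In males, bleomycin lungs held higher levels of most respiratory chain subunits than sham lungs in the main fit, of all 20 libraries, and by modest amounts. There 43 of 70 subunits were called higher. Only 14 were with an offset for transcript length, described further on, and 19 with the males fitted alone. Of the 95 members, 49 rose and 1 fell at an adjusted p under 0.05 (edgeR quasi-likelihood test, 5 against 5, adjusted over all 15875 genes), where 22.6% of all tested genes rose and 19.3% fell. No member reached a doubling, a log2 fold change of 1, with a call, a size that 7.77% of all genes passed upward and 4.92% downward. The median log2 fold change over the members was 0.34, against 0.04 over all tested genes. In 39 members the FPKM of every bleomycin male lay above that of every sham male, where 12.6% of all genes did so. In 0 members did every bleomycin male lie below, as in 9.98% of all genes.

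The rise was uneven among the complexes. All 10 ubiquitous subunits of complex IV rose, with a median log2 fold change of 0.52, though Cox7a2 turned below 0 (−0.069) once a trend with transcript length, described further on, was taken out. So did 5 of 7 subunits of complex III (median 0.39) and 10 of 15 of complex V (median 0.39), of which Atp5mc2 likewise turned to −0.0012. In complex I, 11 of 19 membrane arm subunits rose (median 0.32), against 5 of 15 in the matrix arm (median 0.15), and 2 of 4 in complex II (median 0.23). These differences between complexes were not tested. In whole tissue, fewer cells of a type and less RNA per cell cannot be told apart.

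As a summary of level, the geometric mean FPKM of the complex IV ubiquitous subunits was 73.4 ± 11.01 in bleomycin males and 48.8 ± 1.56 in sham males (SD, n = 5 each). The 5 bleomycin males ranged from 62.98 to 90.1 and the 5 sham males from 47.1 to 51.1, without overlap. Complex III stood at 55.2 ± 6.91 in bleomycin males and 41.2 ± 2.08 in sham males, and complex V at 69.5 ± 8.94 in bleomycin males and 53.4 ± 1.81 in sham males. The matrix arm of complex I was closer, with 23.2 to 31.5 in bleomycin males and 21.7 to 23.7 in sham males, ranges that overlapped. Members listed at 0 in any library, such as Atp5f1e of complex V, are left out of these means.

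**Figure D1:**
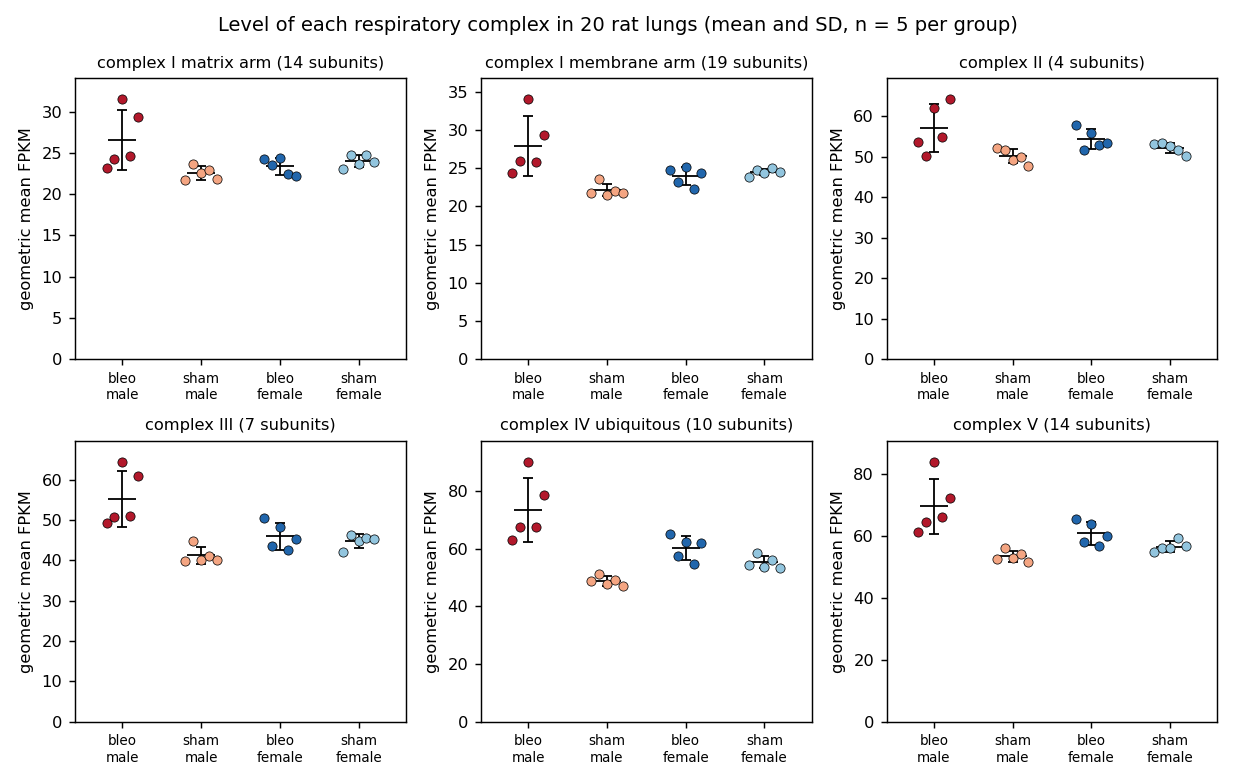
Geometric mean FPKM of the subunits of each complex (y axis) in each of the 20 lungs, by group (x axis), with the mean and SD of 5 animals; members listed at 0 in any library are left out. For complex IV the bleomycin males lie between 62.98 and 90.1, all above the sham males, while the bleomycin females (54.8 to 65.1) and sham females (53.5 to 58.6) overlap.

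Bleomycin male 3 carried the highest value of its group in 58 of the 95 members (61.1%), where 19.4% of all tested genes peaked in that library. The median coefficient of variation over members was 17.0% in bleomycin males, against 7.81% in sham males, 9.46% in bleomycin females and 6.17% in sham females. Without bleomycin male 3, 36 members rose and 2 fell, with a median log2 fold change of 0.22. In that fit 3506 of all 15875 genes rose and 2966 fell, with a median of 0.03.

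Transcript length moved with the response in males. Over 14707 protein-coding genes, shorter transcripts (length here is the one implied by the deposited counts and FPKM) had higher log2 fold changes, with a Spearman rho of −0.27, and over the 70 subunits rho was −0.42; genes share their libraries, so these are descriptions. Protein-coding genes of 500 to 1000 bases had a median log2 fold change of 0.36 in males and those over 4000 bases −0.16, and bleomycin male 3 had the steepest such trend of the 20 libraries. The subunits of complexes I to V lay above the median of protein-coding genes of their own length class in every class: 0.70 against 0.27 under 500 bases (6 subunits), 0.46 against 0.36 for 500 to 1000 (19), 0.32 against 0.23 for 1000 to 2000 (24), 0.35 against 0.06 for 2000 to 4000 (16) and −0.0022 against −0.16 above 4000 (5).

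When each library's trend with length was taken out as an offset in edgeR, a fit added after the data had been seen, 18 of 95 members rose in males, 17 of them among the 49, and 2 fell. That is 18.9% of the members called higher, against 20.1% of all tested genes in the same fit, and 2.11% against 18.2% called lower. The median log2 fold change of the members was then 0.09, and 6 of 10 ubiquitous subunits of complex IV, 2 of 7 of complex III, 1 of 15 of complex V, 2 of 19 and 3 of 15 in the membrane and matrix arms of complex I and 0 of 4 of complex II rose (at an unadjusted p under 0.05, 1 of the 4 was higher). The count with this offset is below the main count by more than 1.5 times, and so is that of a fit of bleomycin and sham males alone, in which 23 members rose. In that fit of males alone 2401 of all 15875 genes rose.

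**Figure D2:**
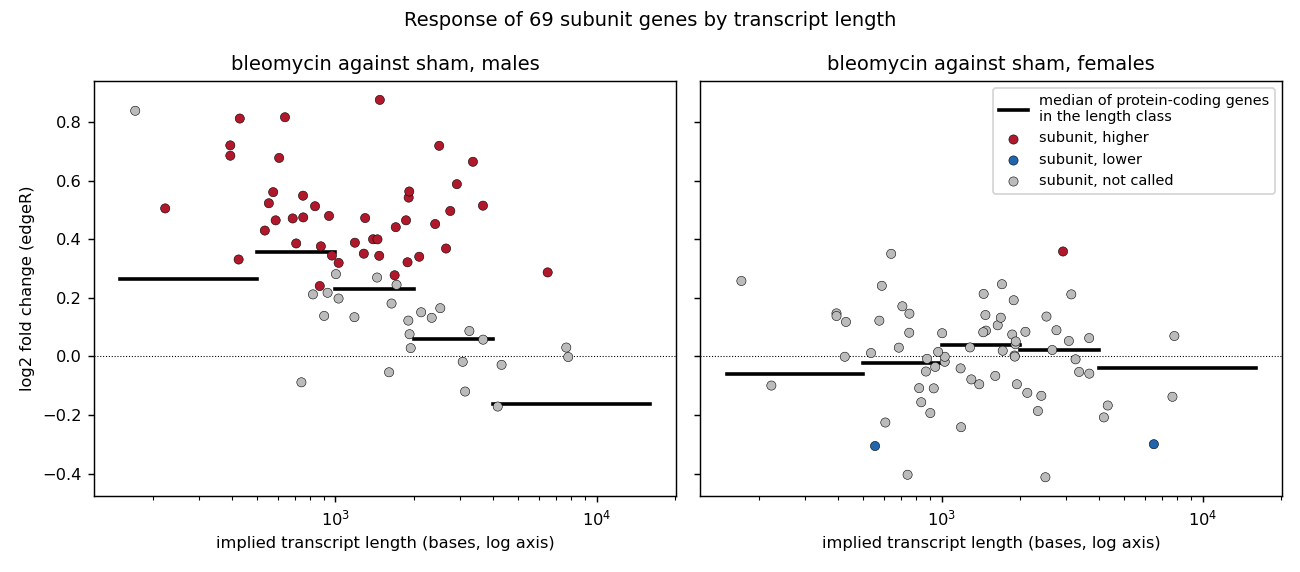
Log2 fold change of bleomycin against sham (y axis) by implied transcript length (x axis, log scale) for 69 of the 70 subunits of complexes I to V, in males on the left and in females on the right; black bars give the median of protein-coding genes in each length class, the outer 2 classes being open-ended. In males the bars step from 0.36 for 500 to 1000 bases to −0.16 above 4000 bases, and in females they stay between −0.06 and 0.04.

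The 6 rises with the smallest adjusted p in males were accessory or regulatory parts of complexes III, IV and V, and all 6 were also called with the length offset. Cox7c, a small structural subunit of complex IV (ENSRNOG00000030237, chromosome 2, 16840837 to 16843760 as the table gives it), had 25.2, 27.3, 29.7, 22.7 and 27.9 FPKM in bleomycin males, against 15.8, 16.1, 13.8, 12.3 and 12.9 in sham males. The build of these coordinates is uncertain, since the assembly and the annotation named in the labels belong to different releases. The groups did not overlap, and the log2 fold change was 0.88 ± 0.099 (standard error, SE; adjusted p = 3.61e-06, edgeR). With the length offset it was 0.64 (adjusted p = 2.04e-05, edgeR).

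Cox6c, another nuclear subunit of complex IV (ENSRNOG00000010807, chromosome 7, 67111024 to 67141963), had 149, 149, 158, 122 and 164 FPKM in bleomycin males, against 98.3, 90.5, 86.1, 88.8 and 76.4 in sham males. Again every bleomycin male lay above every sham male (log2 fold change 0.72 ± 0.095, adjusted p = 1.44e-05, edgeR). Cox7b, the X-linked subunit (ENSRNOG00000054689, chromosome X, 71083456 to 71089732), had 55.3, 63.1, 62.4, 66.4 and 111 FPKM in bleomycin males, against 40.4, 43.96, 40.8, 36.6 and 36.1 in sham males. Bleomycin male 5 was far above the other 4, and the remaining bleomycin males were still all above the sham males. The Cox7b log2 fold change in males was 0.82 ± 0.131 (adjusted p = 9.01e-05, edgeR).

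Uqcrq, the small subunit of complex III that borders cytochrome b (ENSRNOG00000067979, chromosome 10, 37586888 to 37589169), had 69.3, 74.5, 99.02, 69.3 and 81.4 FPKM in bleomycin males, against 41.99, 50.5, 44.7, 43.03 and 40.1 in sham males. Its highest value was that of bleomycin male 3, and the groups did not overlap. The Uqcrq log2 fold change in males was 0.81 ± 0.128 (adjusted p = 7.97e-05, edgeR). Atp5mg, the g subunit in the membrane part of ATP synthase, had 18.8, 20.5, 21.7, 19.3 and 24.1 FPKM in bleomycin males, against 14.5, 15.8, 14.3, 13.2 and 13.6 in sham males. The Atp5mg log2 fold change in males was 0.51 ± 0.083 (adjusted p = 0.000102, edgeR). Atp5if1, the inhibitor that holds ATP synthase back from hydrolysing ATP (ENSRNOG00000013300, chromosome 5, 144738950 to 144742668), had 93.1, 108, 116, 89.1 and 88.2 FPKM in bleomycin males, against 64.6, 65.7, 66.3, 55.4 and 59.3 in sham males. The Atp5if1 log2 fold change in males was 0.64 ± 0.097 (adjusted p = 5.83e-05, edgeR). For Atp5mg and Atp5if1 alike, the lowest bleomycin male was above the highest sham male.

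**Figure D3:**
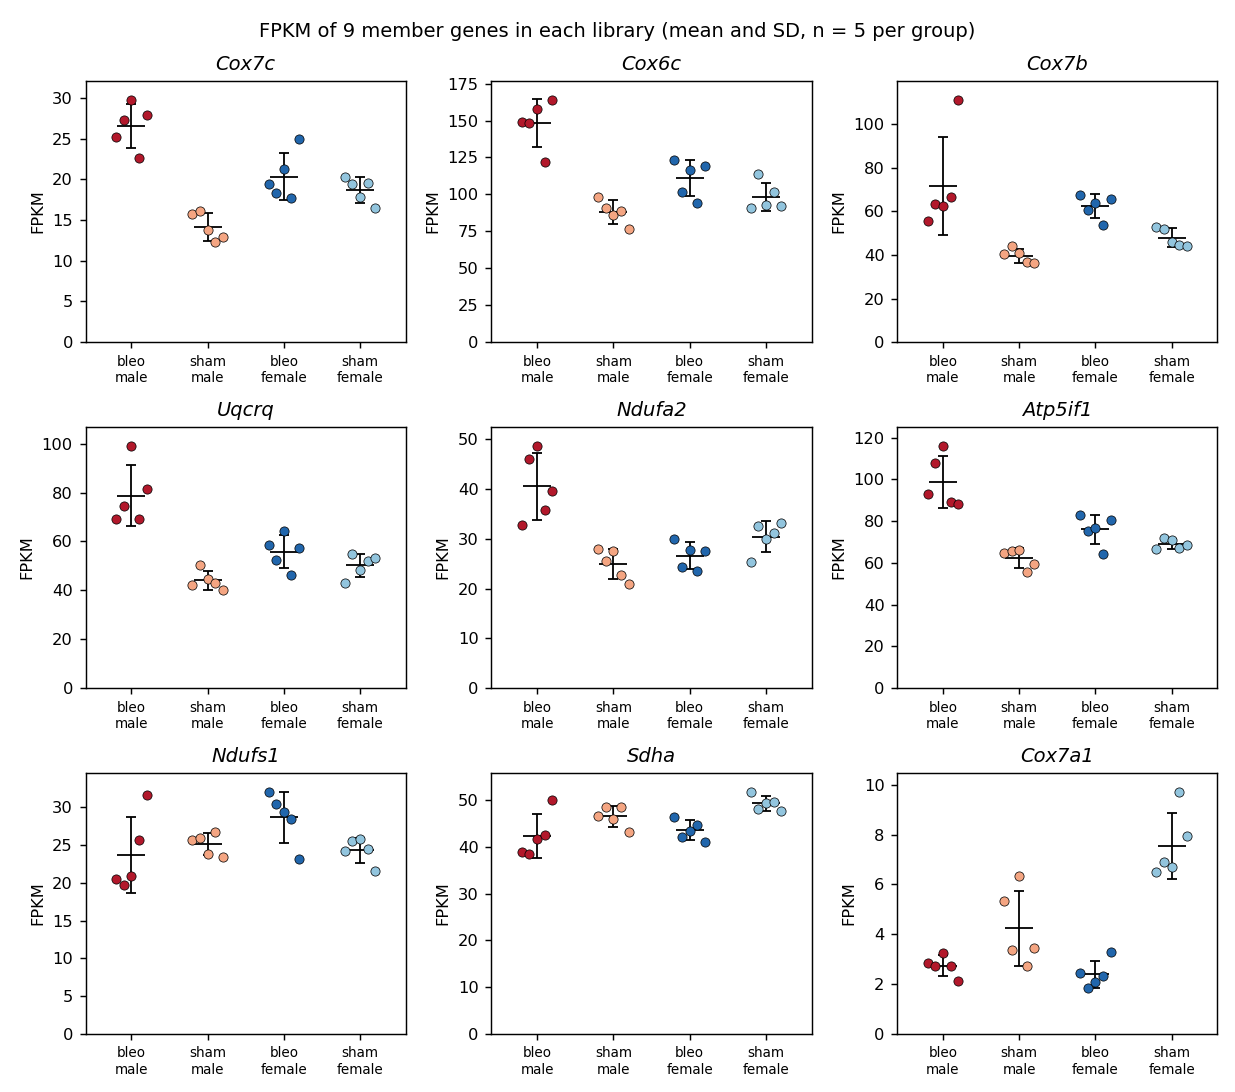
FPKM (y axis) of 9 members in each lung by group (x axis), with the mean and SD of 5 animals. Cox7c, Cox6c, Cox7b, Uqcrq, Ndufa2 and Atp5if1 separate the bleomycin males from the sham males, Ndufs1 and Sdha do not, and Cox7a1 is lower on average after bleomycin in each sex.

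Several catalytic subunits, chosen for their roles after their values were seen, did not pass the test. Ndufs1, the largest iron-sulfur subunit of complex I, had 20.5, 19.8, 20.95, 25.6 and 31.6 FPKM in bleomycin males, against 25.7, 26.01, 23.8, 26.7 and 23.5 in sham males. The Ndufs1 log2 fold change in males was −0.12 ± 0.117 (adjusted p = 0.435, edgeR). Ndufv1, which binds NADH, differed by 0.15 ± 0.120 (adjusted p = 0.332, edgeR). Bleomycin male 5 was the highest of its group for Ndufs1 and bleomycin male 3 for Ndufv1, and the groups overlapped for both. Within the matrix arm, the 5 members that rose were Ndufa2, Ndufa6, Ndufab1, Ndufa12 and Ndufs7, of which Ndufs7 carries an iron-sulfur cluster of the core and the other 4 are accessory subunits (Ndufab1 is also the mitochondrial acyl carrier protein).

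In complex II, which is shared with the citrate cycle, Sdha, the flavoprotein that oxidises succinate, had 38.8, 38.4, 41.7, 42.5 and 50.03 FPKM in bleomycin males, against 46.7, 48.5, 45.9, 48.5 and 43.1 in sham males. The Sdha log2 fold change in males was −0.17 ± 0.08 (adjusted p = 0.0925, edgeR). Its iron-sulfur partner Sdhb rose by 0.34 ± 0.099 (adjusted p = 0.00971), and of the 2 membrane anchors Sdhd rose by 0.28 ± 0.086 (adjusted p = 0.015) while Sdhc, at 0.18 ± 0.08, did not pass (adjusted p = 0.0773, edgeR for all 3). In females Sdha had 46.4, 42.04, 43.4, 44.8 and 41.1 FPKM after bleomycin, against 51.8, 48.02, 49.3, 49.7 and 47.8 after sham treatment. Every bleomycin female lay below every sham female, and the log2 fold change of −0.21 ± 0.08 did not pass (adjusted p = 0.0684, edgeR). Neither Sdhb nor Sdhd was called in males with the length offset (0.19 and 0.078). The assembly factor Sdhaf1, needed for the iron-sulfur clusters of Sdhb, rose by 0.60 ± 0.109 (adjusted p = 0.000284, edgeR) and Sdhaf2 and Sdhaf3 did not pass.

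In the membrane arm of complex I, the 11 members that rose were Ndufa1, Ndufa3, Ndufa8, Ndufa11, Ndufa13, Ndufb5, Ndufb6, Ndufb7, Ndufc1, Ndufc2 and Ndufs5, all of them accessory subunits, since the proton-pumping core of that arm is encoded in the mitochondrial genome. Ndufc1 had 4.77, 5.47, 5.04, 4.18 and 6.40 FPKM in bleomycin males, against 3.09, 3.94, 3.38, 2.85 and 2.65 in sham males. Its log2 fold change was 0.66 ± 0.133 (adjusted p = 0.000653, edgeR), and 0.66 with the length offset. With that offset Ndufb10, another accessory subunit, fell (−0.47, adjusted p = 0.00244, edgeR); without it the value was −0.089 and did not pass.

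In complex III, the Rieske iron-sulfur protein Uqcrfs1 rose by 0.34 ± 0.111 (adjusted p = 0.0179, edgeR), together with the small subunits Uqcrq, Uqcrb, Uqcrh and Uqcr10, while the core proteins Uqcrc1 (0.24) and Uqcrc2 (−0.019) did not pass. In complex V, the alpha, beta and gamma subunits of the catalytic head, Atp5f1a, Atp5f1b and Atp5f1c, differed by 0.16, 0.076 and −0.0022 and did not pass. Of the 10 members that rose, only Atp5mg was called with the length offset. The 10 included 2 genes for the c ring, Atp5mc2 (0.39, and −0.0012 with the offset) and Atp5mc3 (0.40), and the small membrane subunits Atp5mk (0.69), Atp5mf (0.55) and Atp5me (0.51). Atp5f1e, the epsilon subunit, is listed at 0 in sham male 5 and sham female 4 and lay between 77.9 and 149 FPKM in all other libraries, so its fold change was not read.

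**Figure D4:**
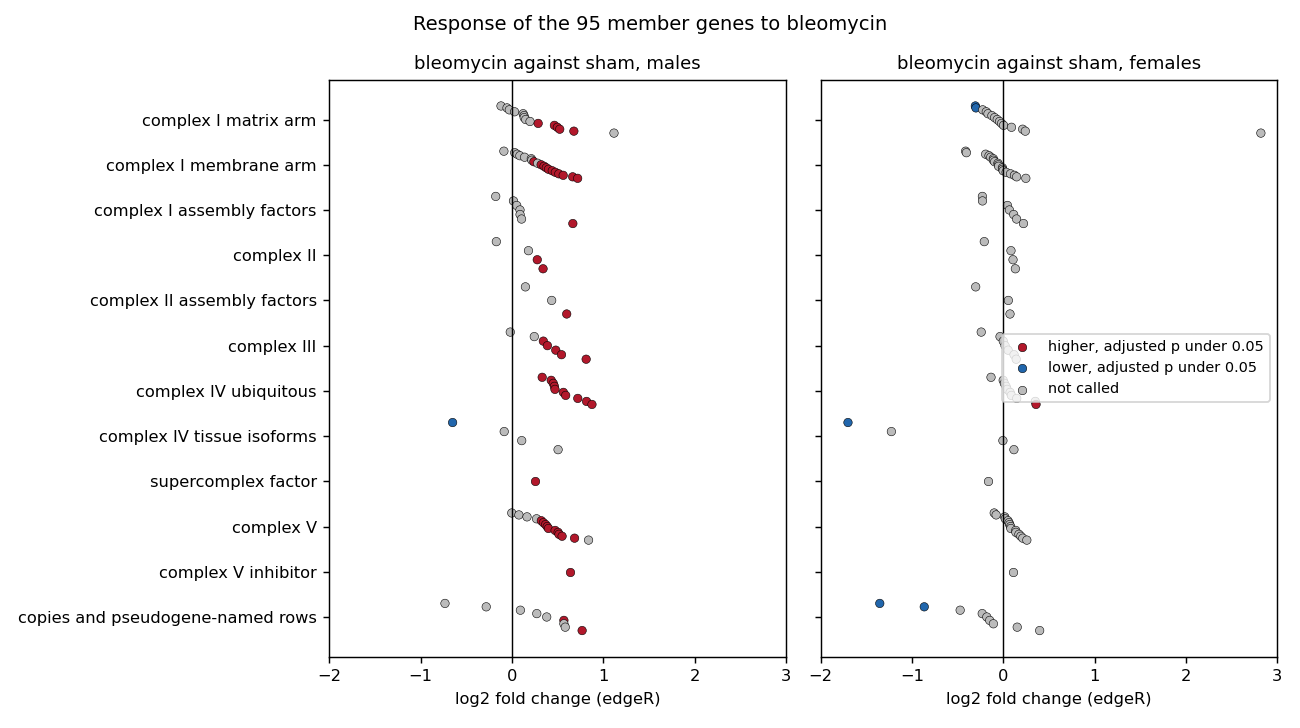
Log2 fold change of bleomycin against sham (x axis) for each of the 95 members by role (rows), in males on the left and in females on the right; red marks members called higher, blue members called lower and grey the rest, in the fit without a length offset. The 10 ubiquitous subunits of complex IV are all red in males, where they range from 0.33 to 0.88, and 1 of them is red in females; with the length offset Cox7a2 lies at −0.069 and Atp5mc2 at −0.0012 in males.

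In females few members were called. Only 1 member, Ndufa4, rose and 5 fell, where 13.2% of all tested genes rose and 8.38% fell, and the median log2 fold change over the members was 0.01, against 0.00 over all genes. The 5 that fell were Ndufa6, Ndufs7, Cox7a1 and 2 rows of uncertain identity, Ndufa10l1 and the second row named Cox6b1; Cox7a1 and Ndufa10l1 passed a log2 fold change of 1 downward, as 1.54% of all genes did. Upward 0 members passed that size, against 5.46% of all genes. In 5 members every bleomycin female lay above every sham female (14.9% of all genes) and in 4 every one lay below (8.77%). With the length offset, 1 member rose and 8 fell, 4 of them among the 5. That is 1.05% and 8.42% of the members, against 13.8% and 9.44% of all tested genes. With the females fitted alone 3 members rose and 11 fell, where 2906 of all 15875 genes rose and 2475 fell. Leaving out 1 library gave 2 to 7 that fell. There were 3 without bleomycin female 2, bleomycin female 4 or sham female 5, 2 without bleomycin female 3, sham female 2 or sham female 4, and 7 without bleomycin male 3.

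The complex levels of females lay close together in FPKM. Complex IV stood at 60.4 ± 4.18 in bleomycin females and 55.3 ± 2.11 in sham females, and complex III at 45.98 ± 3.32 in bleomycin females and 44.8 ± 1.67 in sham females (geometric mean FPKM, SD, n = 5 each). The matrix arm of complex I stood at 23.4 ± 0.986 in bleomycin females and 24.03 ± 0.725 in sham females. The picture differed in TPM, which is FPKM rescaled to the same sum in every library. In that unit every bleomycin female lay above every sham female for complexes II to V, with all members kept. Complex IV ran from 141.8 to 163.3 TPM in bleomycin females, against 124.0 to 137.2 in sham females. Complex III ran from 109.9 to 126.6, against 104.8 to 109.0, and both arms of complex I overlapped. Cox7b was among the members whose female groups did not overlap, with 67.7, 60.5, 63.9, 53.7 and 65.7 FPKM in bleomycin females, against 52.96, 52.1, 45.99, 44.3 and 44.1 in sham females. Its log2 fold change of 0.35 ± 0.130 did not pass (adjusted p = 0.0598, edgeR).

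Ndufa4, once counted to complex I and now to complex IV, was the member that rose in both sexes. It had 27.4, 25.2, 28.1, 23.3 and 30.5 FPKM in bleomycin females, against 21.97, 23.2, 19.8, 19.4 and 18.3 in sham females, with no overlap. The Ndufa4 log2 fold change in females was 0.36 ± 0.095 (adjusted p = 0.0107, edgeR). In males it had 24.6, 26.7, 31.2, 28.3 and 34.2 FPKM after bleomycin, against 20.2, 21.3, 18.1, 17.7 and 17.3 after sham treatment. The Ndufa4 log2 fold change in males was 0.59 ± 0.096 (adjusted p = 0.000105, edgeR). The difference between the 2 responses was −0.23 ± 0.135 and did not pass (adjusted p = 0.288, edgeR).

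Ndufa6, an accessory subunit of the matrix arm, had 31.5, 32.6, 33.3, 32.3 and 35.5 FPKM in bleomycin females, against 34.3, 42.7, 39.6, 45.6 and 37.3 in sham females, with a slight overlap. The Ndufa6 log2 fold change in females was −0.31 ± 0.096 (adjusted p = 0.0273, edgeR). In males it moved the other way, with 38.9, 45.2, 46.3, 38.3 and 46.7 FPKM in bleomycin males, against 28.4, 31.8, 28.5, 28.8 and 29.03 in sham males. The Ndufa6 log2 fold change in males was 0.52 ± 0.096 (adjusted p = 0.000309, edgeR). Ndufs7 did likewise, by −0.30 ± 0.096 in females (adjusted p = 0.0311) and 0.29 ± 0.096 in males (adjusted p = 0.0223, edgeR for both). In males with the length offset Ndufa6 was not called (0.15, adjusted p = 0.144, edgeR) and Ndufs7 was, whereas in females Ndufa6 was called (−0.30) and Ndufs7 was not (−0.26, adjusted p = 0.165, edgeR).

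The response of females minus that of males was tested directly as an interaction. It was lower in females for 15 of the 95 members and higher for 0, where 2.04% of all tested genes were lower and 3.65% higher; at an unadjusted p under 0.05, 0 members were higher, and DESeq2 and limma also called 0 higher. Over all genes that split was 579 higher and 324 lower, and with upper quartile scaling it was 475 and 466. The 15 were Ndufa2, Ndufa6 and Ndufs7 of the matrix arm, Ndufa3, Ndufa13 and Ndufc1 of the membrane arm, Uqcrb, Uqcrh and Uqcrq of complex III, Cox6c and Cox7c of complex IV, Atp5mg of complex V, and Atp5if1, Sdhaf1 and Ndufs6l1. The median interaction over the members was −0.32, against −0.02 over all genes, and it was −0.18 without bleomycin male 3 and −0.12 with the length offset.

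The largest interaction among them was that of Ndufa3, a membrane arm subunit of low level here, which had 1.74, 2.09, 1.49, 1.57 and 2.43 FPKM in bleomycin females, against 2.54, 2.43, 2.38, 2.23 and 2.54 in sham females, and 2.47, 3.31, 2.28, 2.00 and 3.55 in bleomycin males, against 1.84, 1.70, 1.43, 1.75 and 1.29 in sham males. Sham females lay above all sham males, and bleomycin and sham females overlapped by a narrow margin. The Ndufa3 interaction was −1.13 ± 0.220 (adjusted p = 0.0182, edgeR). Ndufa2, an accessory subunit with a thioredoxin-like fold, had 30.03, 24.4, 27.7, 23.5 and 27.5 FPKM in bleomycin females, against 25.3, 32.6, 29.9, 31.1 and 33.1 in sham females, and 32.7, 46.1, 48.6, 35.7 and 39.6 in bleomycin males, against 27.9, 25.5, 27.5, 22.6 and 20.98 in sham males. Every bleomycin male lay above every sham male while the females overlapped. The Ndufa2 interaction was −0.90 ± 0.185 (adjusted p = 0.0193, edgeR).

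Uqcrh, the hinge protein of complex III, had 45.5, 39.6, 40.8, 40.1 and 40.1 FPKM in bleomycin females, against 44.7, 43.1, 49.3, 52.8 and 48.4 in sham females, and 48.7, 52.7, 68.2, 47.04 and 58.3 in bleomycin males, against 41.4, 42.03, 38.7, 41.7 and 42.3 in sham males. Every bleomycin male lay above every sham male, while the female groups overlapped. The Uqcrh interaction was −0.63 ± 0.155 (adjusted p = 0.0283, edgeR). For Cox7c, females had 19.5, 18.3, 21.2, 17.7 and 24.96 FPKM after bleomycin, against 20.3, 19.4, 17.8, 19.6 and 16.4 after sham treatment, groups that overlapped (0.088 ± 0.099), and the interaction was −0.79 ± 0.140 (adjusted p = 0.0138, edgeR). With the length offset 9 of the 15 were called (9.47% of members, against 1.30% of all genes lower): Ndufa2, Ndufa3, Ndufa6, Ndufc1, Ndufs7, Uqcrb, Uqcrh, Cox7c and Atp5mg.

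The number of members with a called interaction changed with the libraries and the model. It was called for 0 members, and for 0 genes of the whole table in either direction, when the mitochondrial share of counts was a covariate, for 1 member without the 5 libraries with transcripts of other organs, and for 7 without a filter on low values. With that covariate 49 members had an unadjusted p under 0.05 in edgeR and the median interaction over the members was −0.41. Without the 5 libraries, only 20 genes of the whole table were higher and 7 lower. There 43 members had an unadjusted p under 0.05 in edgeR, and the median interaction over the members was −0.44. Without the filter 366 of 23799 genes were higher and 156 lower. Leaving out 1 library at a time gave 6 to 25 members: 6 without bleomycin female 2, bleomycin female 4, sham female 4 or sham female 5, 7 without sham female 2 or 3, 8 without bleomycin female 3 or sham male 1, 4 or 5, and 25 without bleomycin male 4. The mitochondrial share of counts was 4.94 ± 0.443% in bleomycin females and 6.58 ± 0.706% in sham females, and 7.63 ± 1.97% in bleomycin males and 6.46 ± 1.23% in sham males (SD, n = 5 each).

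Between the sexes after bleomycin, 19 members were lower in females than in males and 0 were higher, where 8.72% of all tested genes were lower and 11.7% higher (1854 higher and 1385 lower over all genes, and 1539 and 1843 with upper quartile scaling). At an unadjusted p under 0.05, 1 member was higher, and DESeq2 and limma called 0 higher. In 11 members every bleomycin female lay below every bleomycin male, where 2.49% of all genes did so, and in 0 members every one lay above (5.06% of all genes). Uqcrq was one of the 11, with 58.5, 52.4, 64.5, 46.4 and 57.5 FPKM in bleomycin females, against 69.3, 74.5, 99.02, 69.3 and 81.4 in bleomycin males. The Uqcrq log2 fold change in females against males was −0.49 ± 0.127 (adjusted p = 0.0135, edgeR). Cox4i1, the ubiquitous form of subunit 4 of complex IV, was another, with 79.5, 72.8, 71.7, 67.5 and 73.1 FPKM in bleomycin females, against 86.4, 94.7, 139.7, 83.9 and 102 in bleomycin males. The Cox4i1 log2 fold change in females against males was −0.47 ± 0.132 (adjusted p = 0.0185, edgeR).

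The sex difference after bleomycin was not called in every model. When the 10 bleomycin libraries were fitted alone in edgeR, 0 members were called (28 at an unadjusted p under 0.05), and 14 genes were higher and 15 lower in the whole table. No member was called with the mitochondrial share as a covariate (43 at an unadjusted p under 0.05 in edgeR), 7 were lower without the libraries with transcripts of other organs (where 426 of all 15875 genes were lower), 10 with the length offset (where 8.33% of all genes were lower), 11 without bleomycin female 2 or bleomycin female 4, and 12 without bleomycin male 3.

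Between sham females and sham males, 1 member was called, Ndufa6, which was higher in females, where 0.113% of all tested genes were higher and 0.409% lower. It had 34.3, 42.7, 39.6, 45.6 and 37.3 FPKM in sham females, against 28.4, 31.8, 28.5, 28.8 and 29.03 in sham males (0.46 ± 0.096, adjusted p = 0.0307, edgeR), without overlap. No member was called lower (2 at an unadjusted p under 0.05, and 0 by DESeq2 or limma). In 14 members every sham female lay above every sham male, where 1.92% of all genes did so, and in 1, Cox4i2, every one lay below (3.16% of all genes). The call of Ndufa6 was lost with the length offset, without a filter, without the libraries with transcripts of other organs, and without sham female 2, 3, 4 or 5 or any 1 of the 5 sham males. Without sham male 3, Cox7a1 was called in its place.

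Complex IV has tissue-restricted isoforms that replace ubiquitous subunits in certain cells. Cox7a1, the form of subunit 7a found mainly in heart and skeletal muscle, was the member with the largest called fall. It had 2.43, 1.83, 2.08, 2.32 and 3.28 FPKM in bleomycin females, against 6.52, 6.88, 6.70, 9.72 and 7.96 in sham females, with a wide gap between the groups. The Cox7a1 log2 fold change in females was −1.70 ± 0.226 (adjusted p = 1.74e-05, edgeR). In males it had 2.85, 2.73, 3.26, 2.73 and 2.10 FPKM after bleomycin, against 5.32, 3.36, 6.33, 2.73 and 3.43 after sham treatment, groups that overlapped (−0.65 ± 0.221, adjusted p = 0.024, edgeR), and the interaction, at −1.05 ± 0.312, did not pass (adjusted p = 0.0523, edgeR).

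Cox7a2, the ubiquitous counterpart of Cox7a1, rose by 0.33 ± 0.113 in males (adjusted p = 0.0239, edgeR) and stood at −0.069 with the length offset. Within each library, the FPKM of Cox7a1 was set against that of Cox7a2, a ratio free of library scaling but not adjusted for transcript length. It was 1.75% to 2.77% in bleomycin females, against 5.63% to 8.90% in sham females (mean log2 difference −1.70), and 1.62% to 2.64% in bleomycin males, against 2.70% to 7.14% in sham males (−0.92). Neither pair of groups overlapped, so each comparison had the smallest p that 5 against 5 allows (exact two-sided permutation test, p = 0.00794, adjusted p = 0.0318 over 8 ratio tests). The male difference did not pass when bleomycin male 2, 3 or 4 was left out (adjusted p = 0.0635 for each, exact permutation tests). The heart muscle markers summed to 20.8 to 122 FPKM in bleomycin females, against 65.3 to 154 in sham females, and to 39.8 to 426 in bleomycin males, against 74.7 to 111 in sham males; their part in the ratio was not tested. Without the 5 libraries with transcripts of other organs the log2 differences were −1.73 in females and −0.62 in males, neither of which passed (adjusted p = 0.0635 and 0.238, exact permutation tests). The remaining groups still did not overlap, with 2.15% to 2.64% in bleomycin males, against 2.70% to 5.10% in sham males. Too few male libraries were left for any difference to pass, so the test cannot decide there. In females the p was the smallest that the remaining libraries allow.

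Cox6a2, the muscle form of subunit 6a, had 2.03, 2.50, 7.97, 2.00 and 32.7 FPKM in bleomycin males, against 5.01, 3.81, 11.5, 4.92 and 6.24 in sham males, and 5.44, 3.45, 7.71, 0.245 and 0.655 in bleomycin females, against 9.43, 10.7, 4.53, 9.87 and 6.06 in sham females. Its 2 highest libraries were bleomycin male 5, in which the atrial gene Myl7 stood at 59.4 FPKM, and sham male 3, in which skeletal muscle actin (Acta1) stood at 172.0 FPKM. Its ratio to Cox6a1 differed by −2.10 on the log2 scale in females (adjusted p = 0.0762) and by −0.73 in males (adjusted p = 0.389, exact permutation tests), and passed without bleomycin female 3 (−2.60) and without bleomycin male 5 (−1.47; adjusted p = 0.0423 for both, exact permutation tests).

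Cox4i2, the form of subunit 4 known from lung smooth muscle and linked to oxygen sensing, had 32.95, 23.3, 26.2, 17.4 and 13.1 FPKM in bleomycin males, against 25.6, 20.03, 17.7, 19.8 and 19.97 in sham males, and 12.01, 15.6, 12.9, 14.4 and 18.5 in bleomycin females, against 12.6, 11.9, 16.8, 15.8 and 9.13 in sham females. It was not called after bleomycin in either sex (0.11 ± 0.206 in males and 0.12 ± 0.206 in females). It was lower in bleomycin females than in bleomycin males (−0.62 ± 0.207, adjusted p = 0.0414, edgeR), and a like difference in sham animals, at −0.63 ± 0.207, did not pass (adjusted p = 0.244, edgeR). Ndufa4l2, a homologue of Ndufa4 induced by hypoxia, was not called after bleomycin either (−0.085 ± 0.167 in males and −0.0044 ± 0.167 in females). The ratios of Cox4i2 to Cox4i1 and of Ndufa4l2 to Ndufa4 did not pass in either sex, with adjusted p from 0.0762 to 0.318 (exact permutation tests); without bleomycin male 1 both passed in males, at −0.59 and −0.80 (adjusted p = 0.0318 for both, exact permutation tests).

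Markers of pericytes and smooth muscle, the cells in which Cox4i2 is best known, summed to a median of 329 FPKM in bleomycin males, against 167 in sham males, and 328 in bleomycin females, against 108 in sham females, with 4 of 6 markers higher and 1 lower in males, and 4 of 6 higher and 0 lower in females. Their part in these values was not tested.

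The assembly factors and the copies were a mixed group. Of the 7 named Ndufaf, only Ndufaf6 rose in males (0.67 ± 0.222, adjusted p = 0.0213, edgeR), with overlapping groups, and 0 were called in females by edgeR (1 at an unadjusted p under 0.05). Cox7a2l, which links complexes III and IV in supercomplexes, rose in males by 0.25 ± 0.092 (adjusted p = 0.0381, edgeR) and was not called with the length offset (0.021). Of the 9 copies and pseudogene-named rows, 2 rose in males and 2 fell in females. Their reads may be shared with the parent genes, so they are uncertain.

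Other mitochondrial gene lists, assembled with earlier results of these data known, were set beside the respiratory chain in males. Cytochrome c (Cycs) and the haem protein of complex III, cytochrome c1 (Cyc1), rose by 0.61 ± 0.120 (adjusted p = 0.000536) and 0.46 ± 0.100 (adjusted p = 0.00129, edgeR for both). Of 73 genes of the mitochondrial ribosome, 42 rose and 1 fell (median 0.32), with Mrpl32 at 13.3, 14.2, 13.3, 12.1 and 14.05 FPKM in bleomycin males, against 10.1, 9.03, 8.29, 8.00 and 8.61 in sham males. Of 17 import genes 11 rose (median 0.45), among them the inner membrane motor subunit Timm44 (0.48 ± 0.081) and the outer membrane receptor Tomm20 (0.48 ± 0.084). Of 27 assembly factors of complexes III to V, 11 rose (median 0.35). Over all tested genes the shares were 22.6% higher and 19.3% lower.

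These counts too were smaller with the length offset, under which 16 of the 73 ribosomal genes rose and 1 fell, 4 of the 17 import genes rose, and 6 of the 27 assembly factors rose and 1 fell, where 20.1% of all tested genes rose and 18.2% fell. Timm44 (0.34, adjusted p = 0.00171) and Tomm20 (0.43, adjusted p = 0.000532) were called with it in males, Cyc1 was called (0.20, adjusted p = 0.0422) and Cycs was not (0.38, adjusted p = 0.0553, edgeR for all 4). In a fit of the males alone, 22 of the 73 ribosomal genes, 6 of the 17 import genes and 7 of the 27 assembly factors rose, where 2401 of all 15875 genes did. Of the 17 citrate cycle genes, the offset gave 1 higher and 1 lower.

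The citrate cycle gave few calls. Of 17 genes of the cycle and of pyruvate dehydrogenase, 2 rose and 3 fell in males (median 0.10), shares of 11.8% and 17.6% against 22.6% and 19.3% of all tested genes. Pdha1, the alpha subunit of pyruvate dehydrogenase, had 40.6, 36.6, 33.3, 50.1 and 53.3 FPKM in bleomycin males, against 63.7, 57.4, 58.9, 54.7 and 58.4 in sham males. The Pdha1 log2 fold change in males was −0.49 ± 0.110 (adjusted p = 0.00166, edgeR). Every bleomycin male lay below every sham male, and Pdha1 also fell with the length offset (−0.48, adjusted p = 0.00155, edgeR). Of 16 regulators of mitochondrial biogenesis, 5 rose and 4 fell in males. Ssbp1 (0.73 ± 0.149, adjusted p = 0.000748) and Twnk (0.38 ± 0.102, adjusted p = 0.0061) were among those that rose. Yy1 fell (−0.43 ± 0.082, adjusted p = 0.000379, edgeR for all 3). In females Pprc1 rose (0.52 ± 0.108, adjusted p = 0.0017, edgeR). Ppargc1a, which encodes the coactivator PGC-1 alpha, had 0.214, 0.344, 0.0863, 0.566 and 0.721 FPKM in bleomycin males, against 1.09, 1.36, 1.28, 0.982 and 1.54 in sham males (−1.75 ± 0.419, adjusted p = 0.00272, edgeR), and its groups did not overlap. With the length offset Ppargc1a had −1.75 in males (adjusted p = 0.00286, edgeR).

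Of 11 carriers and porins, 1 rose in males, the adenine nucleotide carrier Slc25a4, with 131, 124, 169.8, 146 and 166 FPKM in bleomycin males, against 93.9, 103, 104, 89.3 and 92.3 in sham males. The Slc25a4 log2 fold change in males was 0.59 ± 0.105 (adjusted p = 0.000251, edgeR). Of 13 genes for ubiquinone synthesis, 4 rose and 1 fell, and of 8 further complex I assembly genes 3 rose. Over all tested genes 22.6% rose and 19.3% fell in males. In females the same lists gave 4 higher and 2 lower of 73 for the mitochondrial ribosome, 4 higher of 17 for import, 3 higher and 1 lower of 27 for assembly of complexes III to V, 2 higher and 1 lower of 13 for ubiquinone synthesis, 2 higher of 11 for carriers, 1 higher of 16 for regulators and 0 of 17 for the citrate cycle (1 at an unadjusted p under 0.05). Over all tested genes 13.2% rose and 8.38% fell in females. Cycs and Cyc1 were not called in females, and Slc25a4 rose. The Slc25a4 log2 fold change in females was 0.41 ± 0.105 (adjusted p = 0.00762, edgeR).

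The subunits encoded in the mitochondrial genome were counted beside their nuclear partners. Of 13 such protein genes, 2 rose in males, Mt-nd3 (0.71 ± 0.145, adjusted p = 0.000785) and Mt-co2 (0.46 ± 0.172, adjusted p = 0.0388, edgeR for both). Over all tested genes 22.6% rose in males. With the length offset neither was called in males, and 1 of the 13 fell, where 18.2% of all tested genes fell. In females 3 fell, Mt-nd4 by −0.51 ± 0.149 (adjusted p = 0.0188, edgeR) and Mt-nd1 by −0.49 ± 0.159 (adjusted p = 0.0322, edgeR) among them, where 8.38% of all tested genes fell. In a fit of the females alone 12 of the 13 fell, as did 2475 of all 15875 genes. Between bleomycin females and bleomycin males 8 of the 13 were lower in females, where 8.72% of all tested genes were. The interaction was called for Mt-nd3 (−1.0001, adjusted p = 0.0193, edgeR), where 2.04% of all tested genes were lower.

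**Figure D5:**
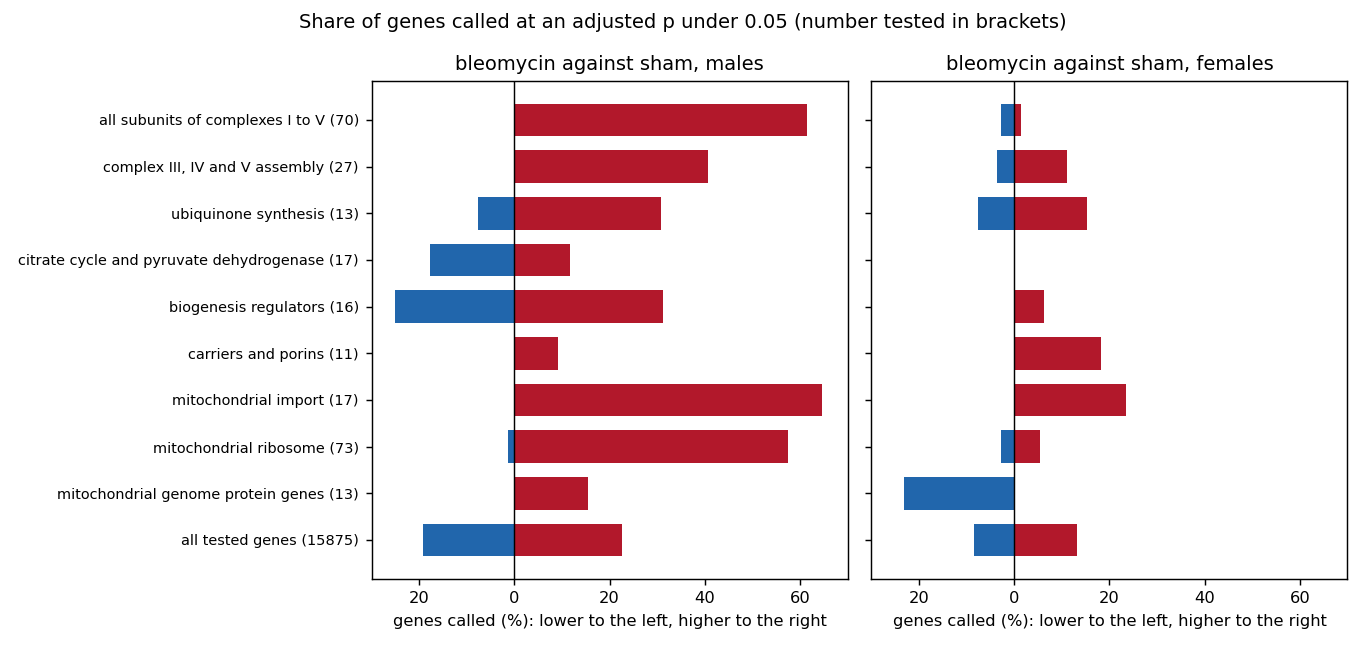
Percentage of genes of each list (rows, number tested in brackets) called higher (red, to the right) or lower (blue, to the left) after bleomycin in males (left panel) and females (right panel), in the fit without a length offset. In males 43 of 70 respiratory chain subunits, 11 of 17 import genes and 42 of 73 mitochondrial ribosome genes are higher, against 22.6% of all tested genes.

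Markers of several cell types moved with treatment in the same libraries. Macrophage markers summed to a median of 428 FPKM in bleomycin males (range 262 to 662), against 102 in sham males (79.1 to 110.4), and 188 in bleomycin females (135 to 324), against 111.9 in sham females (104 to 124), with 4 of 5 tested markers higher in males and 3 of 5 in females. Alveolar type 2 markers had a median of 5027 FPKM in bleomycin males (1906 to 8829), against 10965 in sham males (8925 to 11692), and 8420 in bleomycin females (6839 to 10811), against 11487 in sham females (10833 to 13647), with 3 of 5 lower in males and 0 of 5 called in females.

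Endothelial markers stood at a median of 188 FPKM in bleomycin males, against 413 in sham males, and 400.4 in bleomycin females, against 366 in sham females, with 3 of 4 lower in males and 1 of 4 in females. Genes of cycling cells had 37.8 FPKM in bleomycin males, against 10.6 in sham males, and 55.9 in bleomycin females, against 6.50 in sham females, with 4 of 4 higher in each sex. Red cell genes had 32.9 FPKM in bleomycin males, against 762 in sham males, and 139 in bleomycin females, against 375 in sham females, with 3 of 3 lower in males and 0 of 3 called in females. The part of these shifts in the levels of the respiratory chain members was not tested.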

How the data were processed

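Lung RNA of 20 rats, 5 per group, was measured. Per the labels' protocols, RNA of integrity number 7.0 or more was captured by poly-A, made into stranded libraries and read as pairs of 150 bases. Adapters were trimmed with Cutadapt 1.10, reads were aligned with HISAT2 2.0 and genes quantified with StringTie 1.3.4, per the labels' protocols. The authors deposited counts and FPKM per gene and library, per the file headers. How whole counts came from the StringTie output is not given in the sources used here. A count of 4 occurs 7103 times, while 3 occurs 3459 times and 5 occurs 2447 times, so 1 count is not 1 read pair. The labels name Rnor 6.0 together with Ensembl 112, so the build of the printed coordinates is uncertain. The organism field says mouse, while stock, genome and gene identifiers are those of rat. No rat sequence was used here.

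The 15875 genes that reached an FPKM of 0.5 in 5 or more libraries were tested on the deposited counts with edgeR 4.0.16 in R 4.3.3 (TMM, robust quasi-likelihood test, 1 mean per group, all 20 libraries, two-sided, Benjamini-Hochberg over 15875 genes, calls at an adjusted p under 0.05), tested on simulated data first. Alternatives were DESeq2 1.42.0, limma 3.58.1 on log2(FPKM + 0.1) and log2(FPKM + 1), other scalings and filters, fewer libraries, covariates and a replicate block. Offsets for transcript length were lowess trends over protein-coding genes. The level of a complex is a geometric mean of FPKM + 0.1, given with no test. Ratios of isoforms were tested by exact permutation of 5 against 5. After ± stands the SE for a log2 fold change and the SD for a level, n = 5 per group. Counting error was not computed from such counts, and the errors given cover the spread between animals. Library totals were 68.6 to 87.5 M counts.

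The members and lists were chosen with earlier results of these data known. Per comparison, the named genes were the 6 members with the smallest adjusted p in each direction, up to 12 of the interaction, all isoform pairs, complex II, Atp5if1 and up to 2 genes of each list in each direction. Ndufs1, Ndufv1, Ndufab1, Ndufa12, Ndufaf6, Ndufb10, the membrane arm members, Atp5f1a to Atp5f1e, Atp5mk, Atp5mf, Atp5me, Uqcrc1, Uqcrc2, Uqcrfs1, Uqcr10, Ndufa13, Sdhaf1 and Ndufs6l1 were added for their roles or counts after their values were seen. The values of 1 member are not reported here.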

Additional observations from a re-analysis of the deposited data

Results flagged for a closer look

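Of 152 groups of 5 examined for a library far from the others, 14 held one, where chance gives about 1 in 20. Bleomycin male 3 held 2 of them, at 285 FPKM for Cox6a1 and 382 FPKM for Atp5mc2. Bleomycin male 5 stood apart with Cox7b at 110.9 FPKM and Cox6a2 at 32.7 FPKM. Sham male 2 was the highest of its group for Ndufa6 at 31.8 FPKM, Ndufs7 at 8.79 FPKM, the complex I membrane arm at 23.6 and complex III at 44.9 (both geometric mean FPKM). Sham male 3 was the lowest for Cox7a2l at 75.4 FPKM and Uqcrh at 38.7 FPKM. Bleomycin female 1 was the highest for Uqcrh at 45.5 FPKM, and sham female 2 for Cox7a2 at 122 FPKM. The complex V level with all its members was lowest in sham male 5 at 33.9 and in sham female 4 at 38.6, the libraries in which Atp5f1e is listed at 0.

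By the interaction test of edgeR the response was lower in females for 15 members, where 2.04% of all tested genes were lower and 3.65% higher. The 12 with the smallest adjusted p are given here, so they were picked because they were called. Of these, Cox6c, Atp5if1 and Uqcrq were not called with the length offset. With the mitochondrial share as a covariate 0 members were called. The log2 difference, female response minus male response, was −0.83 for Ndufa6, −0.57 for Cox6c, −0.63 for Uqcrh, −0.53 for Atp5if1, −0.90 for Ndufa2, −0.59 for Ndufs7, −0.54 for Uqcrb, −0.45 for Atp5mg, −0.79 for Cox7c, −1.13 for Ndufa3, −0.69 for Uqcrq and −0.72 for Ndufc1.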

How the results depend on the processing

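In males, the number of members called higher was 18 with the length offset and 23 with only bleomycin and sham males in the fit, and 36 to 52 when 1 library was left out. Members called lower in males numbered 2 by DESeq2 or with the length offset, 0 with the mitochondrial share as a covariate, with only the males, or without the libraries with transcripts of other organs, and 0 to 2 leaving out 1 library. In females, 2 were higher by DESeq2 or without those libraries, 0 with the covariate and 3 with only the females (1 to 2 leaving out 1), and 8 were lower with the length offset, 3 with library totals, 2 with the covariate and 11 with only the females (2 to 7 leaving out 1). Over all tested genes, 9.44% were lower in females with that offset and 2475 of 15875 with only the females. After bleomycin, members lower in females than in males numbered 10 with the length offset, 0 with the covariate or only the bleomycin libraries, and 7 without the libraries with transcripts of other organs (11 to 23 leaving out 1), and members higher numbered 0 to 1 leaving out 1. In sham animals, members higher in females numbered 5 by DESeq2, 3 with only the sham libraries, and 0 with the length offset, without a filter or without the libraries with transcripts of other organs (0 to 2 leaving out 1). The interaction was lower for 26 members by DESeq2, 23 by limma with either pseudocount, 22 with library totals or upper quartile factors, 9 with the length offset, 7 without a filter, 0 with the covariate and 1 without those libraries (6 to 25 leaving out 1). The 2 called values that changed sign were those of Atp5mc2 (−0.0012) and Cox7a2 (−0.069) in males with the length offset, whose construction takes out what genes of a length share. The causes of the other changes were not tested. The replicate number as a block gave 7 interaction calls; same-numbered animals deviated together in some pairs only (r from −0.14 to 0.43). Closest to their own number were 3 of 5 bleomycin males and 1 of 5 bleomycin females among the sham animals of their sex, 3 of 5 bleomycin females among bleomycin males, and 4 of 5 sham females among sham males. Since r was not above 0.1 in every pair of any comparison and the labels tie no numbers together, the numbers were not taken to pair the animals.

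The ratio of Cox7a1 to Cox7a2 kept its size with the block (−0.92 in males and −1.70 in females, adjusted p = 0.167, exact permutation tests). The block test could not decide the call, since permuting within same-numbered pairs leaves too few arrangements for any difference to pass. Without the libraries with transcripts of other organs the ratio was not called (−0.62 in males and −1.73 in females). Too few male libraries were then left for any difference to pass. In females the p was the smallest that the remaining libraries allow. Leaving out 1 library gave −1.08 to −0.73 in males and −1.80 to −1.60 in females for this ratio, −0.59 to −0.19 and 0.13 to 0.38 for Cox4i2 to Cox4i1, −1.47 to −0.42 and −2.60 to −1.39 for Cox6a2 to Cox6a1, and −0.80 to −0.50 and −0.46 to −0.31 for Ndufa4l2 to Ndufa4. The ratio of Cox7a1 to Cox7a2 was not called in males without bleomycin male 2, 3 or 4 (adjusted p = 0.0635 for each, exact permutation tests). With all members kept, the log2 difference of complex levels in females was 0.15 for the matrix arm, −0.032 for the membrane arm, 0.057 for complex II, 0.037 for complex III, 0.13 for complex IV and 0.097 for all subunits. It moved with TPM in place of FPKM, to 0.29 for the matrix arm, 0.074 for the membrane arm, 0.16 for complex II, 0.14 for complex III, 0.23 for complex IV and 0.21 for all subunits, and without the members listed at 0 to −0.040 for the matrix arm and 0.030 for all subunits.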
